A study of Mus musculus with 12 samples.

Results

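The 10 mouse genes described here encode receptors for extracellular nucleotides and adenosine: the P2X channels P2rx1, P2rx4 and P2rx7, the P2Y receptors P2ry2, P2ry6, P2ry12, P2ry13 and P2ry14, and the adenosine receptors Adora2a and Adora2b. They were taken by symbol and make up 10 of the 21851 rows that every library shares. Of these, 9 passed the filter for the test, a mean of at least 1 FPKM over all libraries, as did 9841 rows in all. FPKM, fragments per kilobase of transcript scaled to the sequenced total of a library, puts levels of different genes on 1 scale per length. P2ry12 had a mean of 0.948 FPKM and was left out of the main test. It enters a fit with no filter and the ratios of P2ry13 and P2ry14 to it.

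Bulk RNA-seq was run on peritoneal lavage cells of the C57BL/6J strain. The 12 libraries form 4 groups of 3: lactoferrin knockout (KO) mice injected intraperitoneally with LPS, wild-type (WT) mice injected with LPS, KO mice injected with PBS, and WT mice injected with PBS. All groups share the strain and the injection site, and lactoferrin is the iron-binding granule protein that Ltf encodes. The sources used here give no age, no dose, no time between injection and lavage and no account of how the knockout was made. The labels do not say that each library came from a separate mouse, so the p-values measure the spread between these libraries.

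ATP released from stressed or dying cells opens P2X channels, which pass sodium and calcium, and ATP, UTP, ADP, UDP and UDP-glucose act on P2Y receptors, which signal through G proteins. Surface enzymes cut ATP to adenosine, which raises cAMP in leukocytes through the Gs-coupled receptors encoded by Adora2a and Adora2b and is known for damping inflammatory output. Resident peritoneal macrophages are a classic source of P2X7-driven interleukin 1 release, and LPS is the usual first signal in that assay.

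The labels were checked on Ltf, which had 0.117, 0.0832 and 0.0699 FPKM in KO LPS libraries, 0.176, 1.33 and 0.275 FPKM in WT LPS libraries, 0.183, 0.258 and 0.212 FPKM in KO PBS libraries and 1.89, 1.23 and 1.16 FPKM in WT PBS libraries. Within each treatment every KO library lay below every WT library, although the KO titles read as wild type and only the sample codes and characteristics name the knockout. WT PBS replicate 3 stands apart, with Spearman correlations over genes of 0.949 and 0.934 to its group, against at least 0.973 for every other pair within a group. Values without it stand beside the results that it moves most. Summed over 8 large peritoneal macrophage markers, the libraries held 1161 to 1307 FPKM in KO LPS, 1062 to 1390 in WT LPS, 1488 to 2111 in KO PBS and 1316 to 2435 in WT PBS, and no marker was at 0 in any group. The sum of 8 neutrophil markers was 714 to 2676 FPKM in KO LPS, 153 to 280 in WT LPS, 1216 to 3068 in KO PBS and 1969 to 3293 in WT PBS. In bulk RNA, fewer cells of a type and less RNA per cell cannot be told apart.

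Members lie close together at 3 places in the genome (GRCm38, GENCODE annotation). P2rx7 (chr5:122643911-122691432) and P2rx4 (chr5:122707544-122729738) follow each other on the plus strand with 16111 bases between them. P2ry6 (chr7:100937630-100974649) and P2ry2 (chr7:100996568-101012866) follow each other on the minus strand with 21918 bases between them. P2ry14 (chr3:59113855-59153618), P2ry13 (chr3:59207892-59210882) and P2ry12 (chr3:59216272-59262871) span 149017 bases on the minus strand, all inside the plus-strand gene Med12l (chr3:59005825-59318682). The sources used here do not say whether counting used strand, so reads of Med12l and of these receptors cannot be told apart, but Med12l itself was listed at no more than 0.205 FPKM in any library. P2rx1 (chr11:72999103-73015200) and Adora2b (chr11:62248984-62266453) lie on chromosome 11 and Adora2a (chr10:75316877-75334784) on chromosome 10, each on the plus strand.

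Of the 10 members, 8 had a promoter in the RefSeq table for GRCm38.p6, covering 250 bases before and 50 after the start. The 5 shown are those of P2rx1 (chr11:72998895-72999194, plus strand) and Adora2b (chr11:62248734-62249033, plus strand), the members with the largest changes under LPS in KO cells, and those of P2rx7 (chr5:122643677-122643976, plus strand), P2ry13 (chr3:59210833-59211132, minus strand) and P2ry14 (chr3:59153443-59153742, minus strand), which hold the other motif matches. Capitals mark matches, on either strand, to 6 motifs: GAGGAA (the PU.1 core), TGANTCA (AP-1), TGACGTCA (the cAMP response element), GAAANNGAA (an interferon response element core), TTCNNNGAA (the STAT site) and GGNNTTTCC (an NF-kB core), where N is any base.
P2rx1: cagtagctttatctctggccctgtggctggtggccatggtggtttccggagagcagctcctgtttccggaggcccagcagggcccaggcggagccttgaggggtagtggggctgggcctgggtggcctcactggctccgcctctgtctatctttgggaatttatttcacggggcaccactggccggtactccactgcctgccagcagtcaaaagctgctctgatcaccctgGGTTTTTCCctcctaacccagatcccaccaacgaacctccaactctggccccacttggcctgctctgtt
P2rx7: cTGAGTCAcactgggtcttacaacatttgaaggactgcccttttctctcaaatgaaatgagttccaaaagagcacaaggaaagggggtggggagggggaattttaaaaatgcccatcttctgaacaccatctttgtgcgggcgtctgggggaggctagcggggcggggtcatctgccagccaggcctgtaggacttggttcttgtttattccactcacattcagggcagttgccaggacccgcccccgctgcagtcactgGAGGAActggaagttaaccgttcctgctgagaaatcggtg
P2ry13: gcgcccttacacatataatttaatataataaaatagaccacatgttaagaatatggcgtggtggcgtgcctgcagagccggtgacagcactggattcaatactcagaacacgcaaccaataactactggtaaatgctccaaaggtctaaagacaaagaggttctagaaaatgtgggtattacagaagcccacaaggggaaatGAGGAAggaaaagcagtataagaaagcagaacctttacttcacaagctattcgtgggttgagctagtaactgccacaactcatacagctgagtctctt
P2ry14: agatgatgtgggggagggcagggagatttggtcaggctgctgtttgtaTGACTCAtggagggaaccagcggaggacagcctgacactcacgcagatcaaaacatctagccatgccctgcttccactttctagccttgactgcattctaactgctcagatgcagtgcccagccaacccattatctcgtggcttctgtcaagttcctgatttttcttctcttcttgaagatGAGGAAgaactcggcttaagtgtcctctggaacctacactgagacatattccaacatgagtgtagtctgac
Adora2b: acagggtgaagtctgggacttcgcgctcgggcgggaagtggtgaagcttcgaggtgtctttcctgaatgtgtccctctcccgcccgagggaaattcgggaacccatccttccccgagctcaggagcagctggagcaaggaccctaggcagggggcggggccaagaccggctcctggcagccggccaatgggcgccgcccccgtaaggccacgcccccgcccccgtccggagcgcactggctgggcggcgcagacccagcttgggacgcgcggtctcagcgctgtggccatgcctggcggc

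The leftmost base of a match as printed is numbered from the start as 1, with the base before it as -1. P2rx1 held GGNNTTTCC at -19, a motif present in 5.82% of all 32851 promoters of the table. P2rx7 held TGANTCA at -249 and GAGGAA at 11, and P2ry14 held the same motifs at -202 and -21. P2ry13 held GAGGAA at -48. TGANTCA occurred in 7.81% and GAGGAA in 28.3% of all promoters. Neither TGACGTCA (1.79% of promoters), GAAANNGAA (8.56%) nor TTCNNNGAA (8.30%) occurred in the 8 windows, and no match to any of the 6 was found in those of Adora2b, P2rx4, P2ry2 and P2ry12. No match overlapped another. These are matches of letters in a fixed window, with no binding data behind them.

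By mean level Adora2b stood at the top of the family under LPS and P2rx4 under PBS. Adora2b had the highest mean in KO LPS, at 54.9 ± 16.8 FPKM, and in WT LPS, at 37.6 ± 8.10 FPKM (SD, n = 3 each), where it overlapped with P2rx4. In KO PBS and WT PBS the highest mean was that of P2rx4, at 26.3 ± 2.71 and 29.0 ± 6.57 FPKM. Both adenosine receptors together made up 50.6% ± 5.49 of the summed level of the 10 members in KO LPS and 48.8% ± 3.22 in WT LPS, against 24.3% ± 3.43 in KO PBS and 28.4% ± 7.16 in WT PBS (SD, n = 3 each), and the LPS libraries, at 45.2% or more, lay above all PBS libraries, at 33.3% or less. The share of the P2Y receptors was 25.1% ± 2.95 in KO LPS and 20.1% ± 1.49 in WT LPS, against 33.4% ± 1.28 in KO PBS and 33.0% ± 3.79 in WT PBS. The share of the P2X channels was 24.3% ± 3.49 in KO LPS against 42.3% ± 3.30 in KO PBS. In WT cells it was 31.2% ± 2.58 with LPS against 38.6% ± 10.2 with PBS. A share also falls when other members rise, so it does not show a lower level. These shares were not tested. The sum itself was 143 ± 22.3 FPKM in KO LPS, 115 ± 13.5 in WT LPS, 94.3 ± 8.87 in KO PBS and 102 ± 7.63 in WT PBS.

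Within a group many neighbours in the order of levels overlapped. In KO LPS the order after Adora2b was P2rx4, P2ry2, Adora2a, P2ry6, P2rx7, P2ry13, P2ry14, P2rx1 and P2ry12. Of these neighbours P2rx4 and P2ry2 overlapped, and so did every pair from P2rx7 downward. In WT LPS the order was Adora2b, P2rx4, Adora2a, P2ry2, P2ry14, P2rx7, P2ry6, P2ry13, P2rx1 and P2ry12, with no overlap between P2rx4 and Adora2a, P2ry2 and P2ry14, P2rx7 and P2ry6, or P2rx1 and P2ry12. In KO PBS the order was P2rx4, P2ry2, Adora2a, Adora2b, P2rx1, P2ry6, P2rx7, P2ry13, P2ry12 and P2ry14, with clear gaps below P2ry2, P2ry6 and P2ry13. In WT PBS P2rx4 alone stood clear of its neighbour, and P2ry2, Adora2b, Adora2a, P2ry6, P2rx7, P2ry13, P2rx1, P2ry14 and P2ry12 followed with overlapping ranges.

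**Figure D1:**
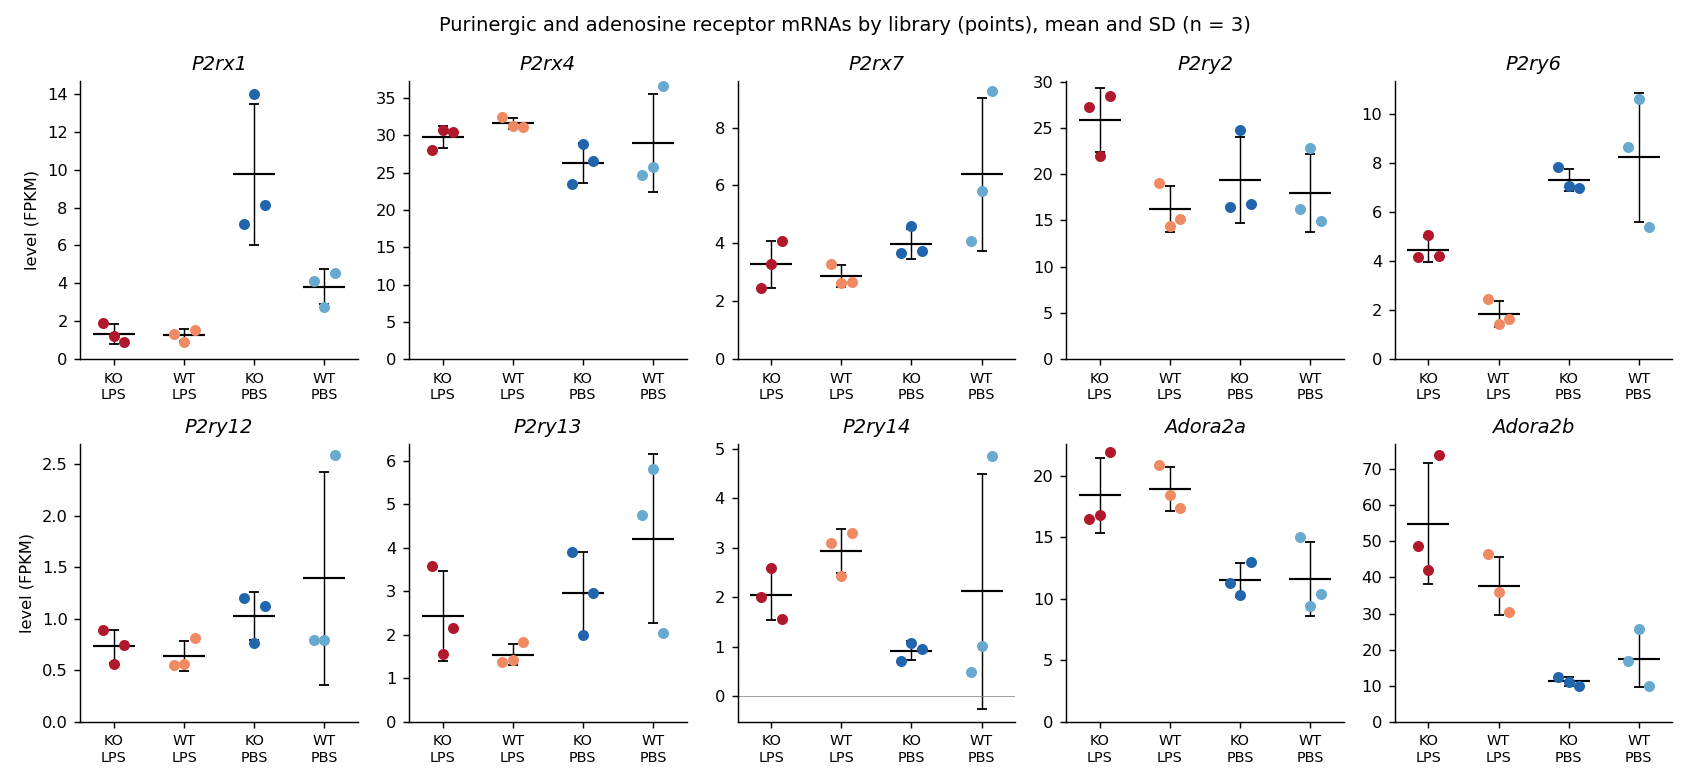
Level of each of the 10 receptor mRNAs (vertical axis, FPKM) in the 3 libraries of each group, with KO LPS, WT LPS, KO PBS and WT PBS from left to right; points are libraries, horizontal lines group means and bars 1 SD. Adora2b lies between 30.4 and 73.9 FPKM in the LPS libraries, above all PBS libraries, and P2rx1 at 1.90 FPKM or less in the LPS libraries, below all PBS libraries.

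The response to LPS was tested within each genotype with limma on log2(FPKM + 1), with all libraries in 1 fit and p-values adjusted over the 9841 genes tested (threshold 0.05). A fold change is the LPS value less the PBS value on that log2 scale, which understates the change of genes with low levels. In KO cells Adora2a and Adora2b rose and P2rx1 and P2ry6 fell, 2 higher and 2 lower of 9 tested members, where 19.9% of all tested genes were called higher and 33.3% lower, 53.2% in all. In WT cells the same 4 receptors were called in the same directions, and P2rx7 and P2ry13 fell as well, which made 2 higher and 4 lower of 9, where 24.8% of all genes were called higher and 37.4% lower, 62.2% in all. Without WT PBS replicate 3 the KO count was 3 higher and 2 lower and the WT count 4 higher and 4 lower, with P2ry14 added in both and P2rx4 in WT. In the same fit 21.9% of all genes were called higher and 36.4% lower in KO cells, and 23.1% higher and 35.6% lower in WT cells. By ranges alone, 3 members were higher and 2 lower in all KO LPS than in all KO PBS libraries, where 24.6% and 41.3% of all genes were, and 2 were higher and 4 lower in all WT LPS than in all WT PBS libraries, where 27.2% and 38.9% were. The members' median fold change was 0.18 in KO cells and -0.13 in WT cells, beside -0.12 and -0.11 for all genes tested. Scaling the libraries to a common upper quartile moved the median of all genes to -0.01 in KO cells and 0.01 in WT cells and the split of all calls to 2623 higher and 2617 lower in KO cells, against 1958 and 3277 without scaling, and to 3130 higher and 3043 lower in WT cells, against 2443 and 3680.

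**Figure D2:**
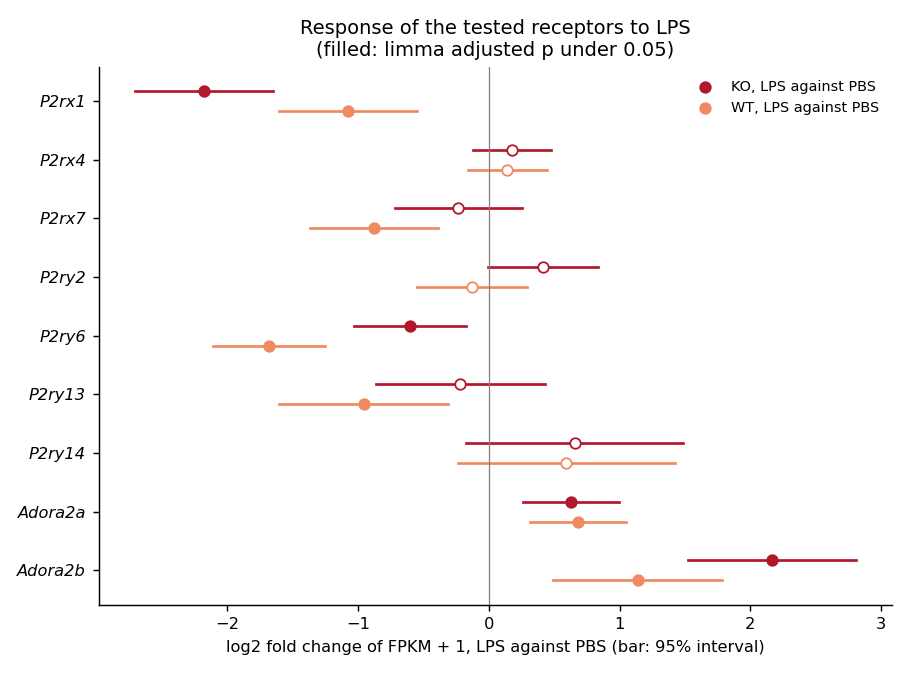
Response of the 9 tested receptors to LPS (horizontal axis, log2 fold change of FPKM + 1, LPS against PBS, with its 95% interval) in KO cells and WT cells; filled points passed limma's adjusted p of 0.05. P2rx1 and P2ry6 lie left of 0 and Adora2a and Adora2b right of 0 in both genotypes, while P2rx7 and P2ry13 are open in KO cells and filled in WT cells.

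P2rx1, an ATP-gated channel that desensitises fast and is best known from platelets, neutrophils and smooth muscle, had the strongest fall of all members in KO cells. Its level was 1.90, 1.21 and 0.876 FPKM in KO LPS libraries, against 7.13, 14.02 and 8.14 FPKM in KO PBS libraries. It was 1.34, 0.922 and 1.54 FPKM in WT LPS libraries, against 4.13, 2.77 and 4.56 FPKM in WT PBS libraries. Every LPS library thus lay below every PBS library of its genotype. P2rx1 fell by 2.18 ± 0.24 (SE) on the log2 scale in KO cells (limma, adjusted p = 3.28e-05) and by 1.08 ± 0.24 in WT cells (limma, adjusted p = 0.00241). The sum of 5 platelet markers was 1.004 to 6.94 FPKM in KO LPS, 1.27 to 4.25 in WT LPS, 0.807 to 1.10 in KO PBS and 1.12 to 1.42 in WT PBS, and Gp9 was at 0 in both PBS groups. The sums of 6.94 and 4.25 FPKM were those of KO LPS replicate 1 and WT LPS replicate 2, the 2 libraries richest in haemoglobin RNA. The sum of the large macrophage markers was lower in every KO LPS library than in every KO PBS library. Between WT LPS and WT PBS it overlapped. Of these 8 markers 6 fell and 1, Selp, rose in KO cells, and 5 fell and Selp rose in WT cells. Selp held 280 to 348 FPKM in WT LPS against 72.1 to 195 FPKM in WT PBS. Over all genes 33.3% fell in KO cells and 37.4% in WT cells. The part of these markers in the P2rx1 result was not tested.

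P2rx1 was also the member with the largest genotype difference under PBS. All 3 KO PBS libraries lay above all 3 WT PBS libraries, a difference of 1.13 ± 0.24 on the log2 scale with a limma p of 0.000628 that became 0.167 after adjustment over all genes. Without WT PBS replicate 3 it was 1.24 (limma, adjusted p = 0.0960). KO PBS replicate 2, the highest of the 12 at 14.02 FPKM, also had the highest large macrophage sum of its group at 2111 FPKM. WT PBS replicate 3 had the highest such sum of the 12, at 2435 FPKM, with P2rx1 at 4.56 FPKM. The sum of 6 mast cell markers was 558, 902 and 706 FPKM in KO PBS libraries and 599, 292 and 762 FPKM in WT PBS libraries. Within each of these groups it ranked the libraries as P2rx1 did, while the groups overlapped. Under LPS the mast cell sum was 519 to 593 FPKM in KO and 725 to 741 FPKM in WT libraries. The part of the macrophage and mast cell markers in the P2rx1 difference was not tested. Under LPS the P2rx1 ranges of KO and WT libraries overlapped (difference 0.02 ± 0.24, limma adjusted p = 0.987). The response to LPS was 1.10 ± 0.34 log2 units more negative in KO than in WT cells, with a limma p of 0.00772 that became 0.374 after adjustment.

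P2rx4, an ATP-gated channel found largely on lysosomes in macrophages, was the least variable member, with 1.56 times between its highest and its lowest library. It had 28.05, 30.8 and 30.5 FPKM in KO LPS libraries, against 23.4, 28.8 and 26.6 FPKM in KO PBS libraries. It had 32.4, 31.3 and 31.1 FPKM in WT LPS libraries, against 24.7, 25.8 and 36.6 FPKM in WT PBS libraries. The groups overlapped in both genotypes, and the difference was 0.18 ± 0.14 in KO cells and 0.14 ± 0.14 in WT cells (limma, adjusted p = 0.299 and 0.396). The WT PBS library at 36.6 FPKM is replicate 3. Without it the WT difference was 0.31 ± 0.10 and passed the test (limma, adjusted p = 0.0209).

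P2rx7, the channel whose opening by high ATP lets potassium out of macrophages and triggers the NLRP3 inflammasome, fell in WT cells. It had 2.47, 3.29 and 4.08 FPKM in KO LPS libraries, against 3.65, 4.59 and 3.73 FPKM in KO PBS libraries, where the groups overlapped. It had 3.29, 2.62 and 2.67 FPKM in WT LPS libraries, against 4.07, 5.82 and 9.27 FPKM in WT PBS libraries, with no overlap. The difference was -0.23 ± 0.22 in KO cells (limma, adjusted p = 0.395) and -0.88 ± 0.22 in WT cells (limma, adjusted p = 0.00496). Without WT PBS replicate 3, which held the highest value, the WT change was -0.61 ± 0.18 (limma, adjusted p = 0.0124). The difference between the genotypes' responses, 0.65 ± 0.31, did not pass the test (limma, adjusted p = 0.536) and was 0.38 without that library (limma, adjusted p = 0.575).

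P2ry2, a Gq-coupled receptor for ATP and UTP through which phagocytes sense dying cells, was the most abundant P2Y member in every group. It had 27.2, 22.0 and 28.4 FPKM in KO LPS libraries, against 16.5, 24.8 and 16.8 FPKM in KO PBS libraries. It had 19.1, 14.4 and 15.1 FPKM in WT LPS libraries, against 16.2, 22.8 and 14.9 FPKM in WT PBS libraries. LPS and PBS libraries overlapped in both genotypes, and the difference was 0.42 ± 0.19 in KO cells (limma, adjusted p = 0.0876) and -0.13 ± 0.19 in WT cells (limma, adjusted p = 0.573), or -0.25 there without WT PBS replicate 3 (limma, adjusted p = 0.320). Without KO PBS replicate 2, the highest of its group, the KO difference was 0.60 (limma, adjusted p = 0.0238), and with upper-quartile scaling 0.54 (limma, adjusted p = 0.0435). Under LPS every KO library lay above every WT library, a difference of 0.64 ± 0.19 with a limma p of 0.00600 and an adjusted p of 0.499.

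P2ry6, the Gq-coupled receptor for UDP, lies next to P2ry2 in the genome and behaved differently under LPS. It had 4.15, 5.04 and 4.21 FPKM in KO LPS libraries, against 7.82, 7.07 and 6.99 FPKM in KO PBS libraries. It had 2.43, 1.42 and 1.63 FPKM in WT LPS libraries, against 8.66, 10.6 and 5.40 FPKM in WT PBS libraries. Both genotypes showed no overlap between LPS and PBS libraries, and P2ry6 fell by 0.60 ± 0.20 in KO cells (limma, adjusted p = 0.0221) and by 1.68 ± 0.20 in WT cells (limma, adjusted p = 3.34e-05). The call in KO cells was lost with upper-quartile scaling (-0.49, limma adjusted p = 0.0583) and without KO LPS replicate 1 (limma, adjusted p = 0.0651), KO LPS replicate 3 (limma, adjusted p = 0.0578) or KO PBS replicate 1 (limma, adjusted p = 0.0689).

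Under LPS all 3 KO libraries held more P2ry6 mRNA than all 3 WT libraries, a difference of 0.96 ± 0.20 with a limma p of 0.000409 and an adjusted p of 0.192. The difference between the genotypes' P2ry6 responses was 1.08 ± 0.28, with a limma p of 0.00237 that became 0.259 after adjustment. Without WT PBS replicate 3, the lowest of its group, that difference was 1.32 ± 0.20 and passed the test (limma, adjusted p = 0.0221). The neutrophil sum also lay higher in every KO LPS library, at 714 FPKM or more, than in every WT LPS library, at 280 FPKM or less, as did the sum of 6 monocyte and small macrophage markers, at 149 to 246 FPKM against 106 to 123 FPKM. Their part in the P2ry2 and P2ry6 differences was not tested.

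P2ry12, P2ry13 and P2ry14, the Gi-coupled receptors of the chromosome 3 cluster, were the lowest P2Y members in every group but WT LPS, where P2ry14 exceeded P2ry6 by mean level. P2ry12, the ADP receptor of platelets and microglia, had 0.888, 0.562 and 0.742 FPKM in KO LPS libraries, 0.546, 0.561 and 0.809 FPKM in WT LPS libraries, 1.203, 0.766 and 1.12 FPKM in KO PBS libraries and 0.790, 0.797 and 2.59 FPKM in WT PBS libraries. All groups overlapped, and the library at 2.59 FPKM is WT PBS replicate 3. In a fit with no filter on low levels the P2ry12 difference between LPS and PBS was -0.23 ± 0.24 in KO cells (limma, adjusted p = 0.513) and -0.47 ± 0.24 in WT cells (limma, adjusted p = 0.140).

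P2ry13, another receptor for ADP, had 3.57, 1.55 and 2.16 FPKM in KO LPS libraries, against 3.90, 2.002 and 2.95 FPKM in KO PBS libraries. It had 1.37, 1.42 and 1.82 FPKM in WT LPS libraries, against 4.74, 5.81 and 2.04 FPKM in WT PBS libraries. The groups overlapped in KO cells and did not overlap in WT cells. The P2ry13 difference was -0.22 ± 0.30 in KO cells (limma, adjusted p = 0.555), and in WT cells P2ry13 fell by 0.96 ± 0.30 (limma, adjusted p = 0.0147). The WT call was lost without WT PBS replicate 1 (-0.85, limma adjusted p = 0.0503) or WT PBS replicate 2 (-0.72, limma adjusted p = 0.0588), while without WT PBS replicate 3 the change was -1.31 (limma, adjusted p = 0.00101). The responses differed between genotypes by 0.74 ± 0.42 (limma, adjusted p = 0.590). The neutrophil sum, at 153 to 280 FPKM in WT LPS and 1969 to 3293 FPKM in WT PBS, also overlapped in KO cells and did not overlap in WT cells, and its part in the P2rx7, P2ry6 and P2ry13 results was not tested. The sum of 5 B cell markers was lower in every LPS library, at 138 to 239 FPKM in KO LPS and 228 to 327 FPKM in WT LPS, than in every PBS library, at 631 to 868 FPKM in KO PBS and 500.4 to 1074 FPKM in WT PBS, and its part in the members' LPS responses was not tested either. The monocyte and small macrophage sum was 149 to 246 FPKM in KO LPS against 267 to 387 FPKM in KO PBS, and 106 to 123 FPKM in WT LPS against 254 to 690.0 FPKM in WT PBS, and its part in the P2rx1 and P2ry6 results was not tested.

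P2ry14, the receptor for UDP-glucose, had 1.998, 2.60 and 1.57 FPKM in KO LPS libraries, against 0.723, 1.09 and 0.966 FPKM in KO PBS libraries, with no overlap. It had 3.09, 2.44 and 3.30 FPKM in WT LPS libraries, against 0.493, 1.02 and 4.85 FPKM in WT PBS libraries, where replicate 3 lay above all LPS libraries. With all libraries neither difference passed the test, at 0.66 ± 0.38 in KO cells (limma, adjusted p = 0.164) and 0.59 ± 0.38 in WT cells (limma, adjusted p = 0.193). All groups share 1 estimate of the spread, so WT PBS replicate 3 enters both tests. Without it P2ry14 was higher with LPS by 0.66 ± 0.16 in KO cells (limma, adjusted p = 0.00451) and by 1.18 ± 0.18 in WT cells (limma, adjusted p = 0.000258).

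Adora2a, the Gs-coupled adenosine receptor of high affinity, rose by nearly the same amount in both genotypes. It had 16.5, 16.8 and 22.0 FPKM in KO LPS libraries, against 11.3, 10.3 and 13.02 FPKM in KO PBS libraries. It had 20.9, 18.4 and 17.4 FPKM in WT LPS libraries, against 15.1, 9.44 and 10.4 FPKM in WT PBS libraries. LPS and PBS libraries did not overlap in either genotype. The rise was 0.63 ± 0.17 in KO cells (limma, adjusted p = 0.00819) and 0.68 ± 0.17 in WT cells (limma, adjusted p = 0.00415), and the responses differed by -0.05, with a 95% interval of -0.57 to 0.46.

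Adora2b, the Gs-coupled adenosine receptor of low affinity, rose in both genotypes, with the largest rise among the members in KO cells. It had 48.7, 42.1 and 73.9 FPKM in KO LPS libraries, against 12.5, 11.03 and 9.96 FPKM in KO PBS libraries. It had 46.4, 36.1 and 30.4 FPKM in WT LPS libraries, against 16.7, 25.7 and 9.92 FPKM in WT PBS libraries. No LPS library overlapped with a PBS library of either genotype. The rise was 2.17 ± 0.29 in KO cells (limma, adjusted p = 0.000134) and 1.14 ± 0.29 in WT cells (limma, adjusted p = 0.00569). Without WT PBS replicate 3 the WT rise was 0.81 (limma, adjusted p = 0.0177). The response was larger in KO cells by 1.03 ± 0.42, with a limma p of 0.0306 that became 0.481 after adjustment, and by 1.36 without WT PBS replicate 3 (limma, adjusted p = 0.139). KO and WT libraries overlapped under either treatment.

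No member passed the test between genotypes. Under PBS limma called 0 of 9 members, where 0.0203% of all genes were called higher and 0.0915% lower, 0.112% in all, although 897 genes had an unadjusted p under 0.05, and 2 members, P2rx1 and P2rx7, had an unadjusted p under 0.05. The P2rx7 difference was -0.51 ± 0.22, and -0.24 ± 0.18 without WT PBS replicate 3 (limma, adjusted p = 0.527 and 0.818). Under LPS it called 0 of 9, where 0.0% of all genes were called although 744 genes had an unadjusted p under 0.05, and 2 members, P2ry2 and P2ry6, were among them. For the difference between the responses it called 0 of 9, where 0.0406% of all genes were called although 946 had an unadjusted p under 0.05, and 3 members, P2rx1, P2ry6 and Adora2b, had an unadjusted p under 0.05. The median difference between the responses was 0.55 over the members and -0.02 over all genes. No other tool was run for these tests. By ranges alone, 1 of 9 members was higher in all KO than in all WT libraries under PBS, where 6.04% of all genes were, and 0 were lower, where 7.34% were. Under LPS 2 members were higher in all KO libraries and P2rx4 was lower in all of them, where 5.03% and 10.4% of all genes were.

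Ratios of related receptors within a library do not depend on how libraries are scaled, apart from the added 1 FPKM. They were tested with an exact permutation test, two-sided, in which LPS and PBS labels were exchanged within genotype (400 relabellings, smallest p 0.005), and adjusted over the 5 ratios. The log2 ratio of P2rx4 to P2rx7 was higher with LPS than with PBS by 0.72 (exact p = 0.005, adjusted p = 0.00833), by 0.41 in KO cells and 1.02 in WT cells. That of P2ry2 to P2ry6 was higher by 1.29 (exact p = 0.005, adjusted p = 0.00833), by 1.02 in KO cells and 1.55 in WT cells. These are the neighbouring pairs on chromosomes 5 and 7. In both pairs all LPS libraries lay above all PBS libraries.

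The log2 ratio of P2ry14 to P2ry12 was also higher with LPS, by 0.97 (exact p = 0.005, adjusted p = 0.00833). In KO cells the LPS libraries lay at 0.56 or more and the PBS libraries at 0.24 or less. In WT cells they lay at 1.14 or more and at 0.70 or less, so that ranges overlapped only across genotypes. P2ry12 had 0.546 to 2.59 FPKM, so the added 1 FPKM weighs on its ratios. The ratio of P2ry13 to P2ry12 differed by -0.24 (exact p = 0.46), and by -0.58 without WT PBS replicate 3 (exact permutation test, adjusted p = 0.055). The log2 ratio of Adora2a to Adora2b changed by -0.999 with LPS (exact p = 0.02, adjusted p = 0.025), at -1.49 ± 0.21 in KO LPS, -0.94 ± 0.17 in WT LPS, 0.04 ± 0.27 in KO PBS and -0.48 ± 0.76 in WT PBS (SD, n = 3 each). Levels per length thus favoured Adora2b in every LPS library, and 1 WT PBS library, at -1.35, lay among the LPS libraries. That ratio missed the threshold without WT PBS replicate 3 (-0.86, exact permutation test, adjusted p = 0.05) or WT PBS replicate 1 (-0.91, exact permutation test, adjusted p = 0.05).

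**Figure D3:**
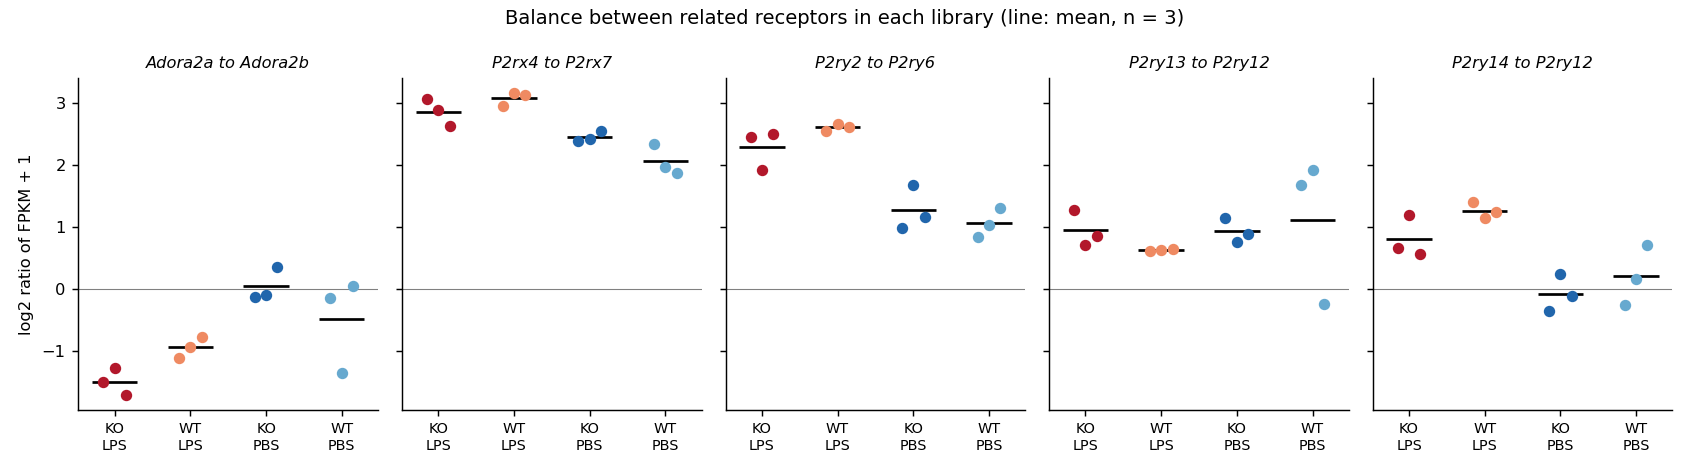
Log2 ratio of FPKM + 1 between related receptors (vertical axis) in each library, by group from KO LPS on the left to WT PBS on the right; points are libraries and lines group means. The ratios of P2rx4 to P2rx7 and P2ry2 to P2ry6 lie higher in all LPS libraries than in all PBS libraries, and that of Adora2a to Adora2b lies below 0 in all LPS libraries.

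The other receptors of these families were mostly low. Of 11 further receptor genes, 10 were above 0 in some library and 3 were tested. P2ry10, a lysophospholipid receptor of the P2Y fold, averaged 27.4 FPKM and did not pass the test, with -0.57 ± 0.23 in KO cells and -0.44 ± 0.23 in WT cells (limma, adjusted p = 0.0568 and 0.113). The KO difference of P2ry10 passed without KO LPS replicate 1 or 2, KO PBS replicate 2 or WT PBS replicate 3 (limma, adjusted p of 0.0301 to 0.0494), and the WT difference without KO LPS replicate 3 (limma, adjusted p = 0.0459). Adora3, a Gi-coupled adenosine receptor, rose by 0.72 ± 0.23 in KO cells (limma, adjusted p = 0.0187) and by 0.57 ± 0.23 in WT cells (limma, adjusted p = 0.0435), but the KO call was lost without KO LPS replicate 1 or KO PBS replicate 3 (0.44 and 0.58, limma adjusted p = 0.0680 and 0.0773) and the WT call without any 1 of 6 libraries: all 3 WT LPS libraries, KO PBS replicate 1, and WT PBS replicates 2 and 3, the last with a value of 0.43 (limma, adjusted p = 0.142). For P2ry1, an ADP receptor, the KO difference was -0.42 ± 0.25 (limma, adjusted p = 0.174), which passed without KO PBS replicate 3 (-0.66, limma adjusted p = 0.0399), and in WT cells P2ry1 fell by 1.25 ± 0.25 (limma, adjusted p = 0.00107).

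Of the surface nucleotidases and related enzymes, 5 were tested, and in each genotype 1 rose and 3 fell. Of all tested genes 19.9% rose and 33.3% fell in KO cells, and 24.8% rose and 37.4% fell in WT cells. The remaining 1 of the 5, the peptidase Dpp4, did not pass the test. Entpd1, which cuts ATP and ADP to AMP (CD39), had 8.97, 7.19 and 4.85 FPKM in KO LPS libraries, against 15.4, 11.3 and 10.3 FPKM in KO PBS libraries, and 4.10, 3.19 and 4.42 FPKM in WT LPS libraries, against 25.0, 24.4 and 24.1 FPKM in WT PBS libraries. It fell by 0.75 ± 0.19 in KO cells (limma, adjusted p = 0.00613) and by 2.39 ± 0.19 in WT cells (limma, adjusted p = 3.04e-06). The responses differed by 1.64 ± 0.27, with a limma p of 6.52e-05 that became 0.0691 after adjustment. That difference passed without WT PBS replicate 3 (1.65, limma adjusted p = 0.0374) or KO PBS replicate 1 (1.79, limma adjusted p = 0.0390). Nt5e, which turns AMP into adenosine (CD73), fell by 1.94 ± 0.37 in KO cells and by 2.41 ± 0.37 in WT cells (limma, adjusted p = 0.00111 and 0.000186). Enpp1, which splits ATP to AMP, fell by 0.77 ± 0.24 in KO cells and by 0.92 ± 0.24 in WT cells (limma, adjusted p = 0.0196 and 0.00665), the KO call being lost without KO LPS replicate 3, KO PBS replicate 1 or KO PBS replicate 3 (limma, adjusted p = 0.0716, 0.0733 and 0.0612). Alpl, a phosphatase that can make adenosine as well, rose by 2.72 ± 0.25 in KO cells and 2.83 ± 0.25 in WT cells (limma, adjusted p = 9.08e-06 and 5.85e-06).

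The nucleoside carriers and the enzymes that act on adenosine or related compounds were tested alike. Of 4 tested carriers, 2 rose and 1 fell in each genotype. Shares over all genes were 19.9% higher and 33.3% lower in KO cells, and 24.8% higher and 37.4% lower in WT cells. Slc29a1 and Slc29a2, which let adenosine equilibrate across the plasma membrane, rose by 1.84 ± 0.15 and 1.69 ± 0.13 in KO cells and by 2.06 ± 0.15 and 1.41 ± 0.13 in WT cells (limma, adjusted p at most 7.41e-06). Slc29a3, a lysosomal carrier, fell by 1.72 ± 0.11 in KO cells and by 1.19 ± 0.11 in WT cells (limma, adjusted p = 9.67e-07 and 7.63e-06). Of the 7 enzymes 2 rose and 1 fell in KO cells, and 3 rose and 1 fell in WT cells, against the same shares. Pnp, which splits inosine, and Ahcy, which acts on S-adenosylhomocysteine, rose by 1.35 ± 0.17 and 1.21 ± 0.13 in KO cells and by 1.57 ± 0.17 and 1.65 ± 0.13 in WT cells (limma, adjusted p at most 7.31e-05). Ada, which deaminates adenosine, differed by 0.24 ± 0.14 in KO cells (limma, adjusted p = 0.163) and rose by 0.62 ± 0.14 in WT cells (limma, adjusted p = 0.00258), and Ampd3, which deaminates AMP, fell by 1.40 ± 0.31 in KO cells and by 1.53 ± 0.31 in WT cells (limma, adjusted p = 0.00281 and 0.00119).

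**Figure D4:**
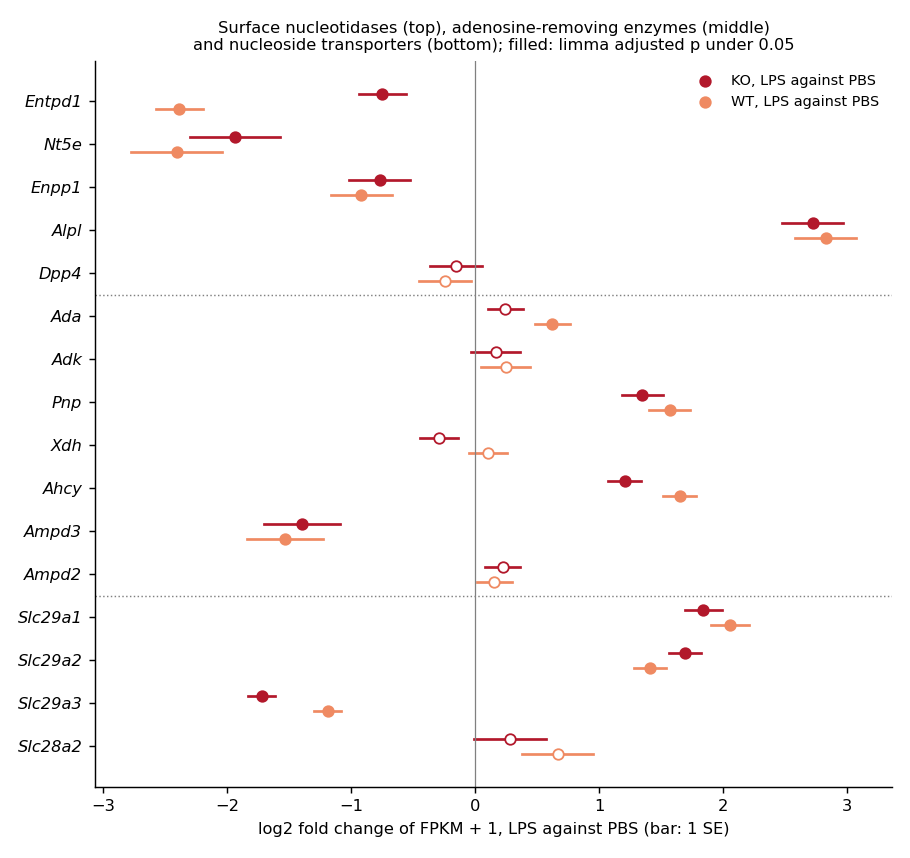
Response to LPS (horizontal axis, log2 fold change of FPKM + 1 with 1 SE) in KO cells and WT cells, where filled points passed limma's adjusted p of 0.05. From top to bottom are surface nucleotidases, enzymes that act on adenosine or related compounds (titled adenosine-removing), and nucleoside carriers. Entpd1 and Nt5e lie left of 0 and Alpl, Slc29a1 and Slc29a2 right of 0 in both genotypes, and the largest gap between the genotypes is that of Entpd1, at -0.75 in KO cells and -2.39 in WT cells.

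Upstream of P2rx7, 6 genes of ATP release were tested, and in each genotype 1 rose and 4 fell. Over all genes 19.9% rose and 33.3% fell in KO cells, and 24.8% rose and 37.4% fell in WT cells. Calhm2, a large-pore channel, fell by 1.99 ± 0.23 in KO cells and by 2.24 ± 0.23 in WT cells, and Slc17a9, which loads ATP into vesicles, fell by 0.99 ± 0.17 and 0.80 ± 0.17 (limma, adjusted p at most 0.00181). Lrrc8d, a volume-regulated anion channel subunit, fell by 0.61 ± 0.12 in KO cells and by 0.66 ± 0.12 in WT cells (limma, adjusted p = 0.00146 and 0.000589). Gja1, the gap junction protein connexin 43, rose by 2.02 ± 0.49 in KO cells and by 1.37 ± 0.49 in WT cells (limma, adjusted p = 0.00473 and 0.0280), the WT call being lost without WT LPS replicate 1 (1.11, limma adjusted p = 0.102), WT LPS replicate 2 (1.43, limma adjusted p = 0.0552), WT PBS replicate 2 (1.36, limma adjusted p = 0.0564) or WT PBS replicate 3 (1.04, limma adjusted p = 0.103) and with no filter on low levels (limma, adjusted p = 0.0535).

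Downstream of P2rx7, 8 genes of interleukin 1 release were tested. In KO cells 2 rose and 3 fell, where 19.9% and 33.3% of all genes did. In WT cells 1 rose and 4 fell, where 24.8% and 37.4% of all genes did. Nlrp3, the sensor that P2X7 activates, rose by 1.57 ± 0.30 in KO cells and by 0.90 ± 0.30 in WT cells (limma, adjusted p = 0.00112 and 0.0206), the WT value being 0.54 without WT PBS replicate 3 and 0.83 without WT LPS replicate 2, neither of which passed (limma, adjusted p = 0.0721 and 0.0638). Its adaptor Pycard, its binding partner Nek7 and Kcnk6, a potassium channel described as a partner of P2X7, fell by 1.05 ± 0.14, 1.30 ± 0.21 and 1.46 ± 0.23 in KO cells and by 1.03 ± 0.14, 1.26 ± 0.21 and 1.18 ± 0.23 in WT cells (limma, adjusted p at most 0.000987). Il1b, named after its values were seen, rose by 1.40 ± 0.32 in KO cells and fell by 0.84 ± 0.32 in WT cells (limma, adjusted p = 0.00326 and 0.0369), the WT call being lost with upper-quartile scaling (-0.70, limma adjusted p = 0.0650), with no filter on low levels (limma, adjusted p = 0.0648) and without WT LPS replicate 1 or 3 or WT PBS replicate 1 or 2 (limma, adjusted p of 0.0860 to 0.145). The difference between the Il1b responses, 2.24 ± 0.45, did not pass the test (limma, adjusted p = 0.124), and without WT PBS replicate 3 it was 2.47 and passed (limma, adjusted p = 0.0374). The neutrophil sum was 714 to 2676 FPKM in KO LPS against 1216 to 3068 FPKM in KO PBS. In WT LPS it was 153 to 280 FPKM against 1969 to 3293 FPKM in WT PBS. Its part in the Il1b result was not tested.

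Of 10 tested genes of Gq and calcium signalling, which P2ry2 and P2ry6 use, 9 fell in each genotype and 0 rose, where 33.3% of all genes fell in KO cells and 37.4% in WT cells. Gna15, a Gq-class subunit of blood cells, fell by 2.61 ± 0.16 in KO cells and by 2.52 ± 0.16 in WT cells, and the calcium entry channel Orai1 by 1.34 ± 0.20 and 1.73 ± 0.20 (limma, adjusted p at most 0.000253). Itpr3, a calcium release channel, fell by 1.78 ± 0.21 and 1.71 ± 0.21, and Stim1, the calcium sensor that opens Orai1, by 1.30 ± 0.16 and 1.37 ± 0.16 (limma, adjusted p at most 8.10e-05). The list's median was -0.77 in KO cells and -1.15 in WT cells, beside -0.12 and -0.11 over all genes. Of 11 tested genes of cAMP signalling, which the adenosine receptors use, 1 rose and 6 fell in each genotype, against the same shares of all genes. Adcy7, an adenylyl cyclase of leukocytes, fell by 2.18 ± 0.11 in KO cells and by 1.88 ± 0.11 in WT cells, and Gnai2, the inhibitory subunit that P2ry12 to P2ry14 couple to, by 1.21 ± 0.12 and 1.39 ± 0.12 (limma, adjusted p at most 1.81e-05). Prkaca, a catalytic subunit of protein kinase A, fell by 0.84 ± 0.13 and 1.06 ± 0.13 (limma, adjusted p = 0.000330 and 4.79e-05). Pde4b, which breaks down cAMP, rose by 1.001 ± 0.11 in KO cells and 0.93 ± 0.11 in WT cells (limma, adjusted p = 3.45e-05 and 3.86e-05). The median of this list was -0.36 in KO cells and -0.33 in WT cells. Of 5 B cell markers 4 fell in each genotype, and of 5 T cell markers 2 fell in KO cells and 5 in WT cells. Of 8 neutrophil markers 2 fell in KO cells and 7 in WT cells. Of 8 large macrophage markers 6 and 5 fell, and of 5 tested monocyte and small macrophage markers 2 and 4 fell. In each of the last 2 lists 1 marker rose in each genotype. Of 6 mast cell markers 0 fell, and 2 rose in WT cells. The part of these markers in the Gq and cAMP lists was not tested. In all lists above apart from the cell markers limma called 0 genes between the genotypes under either treatment or for the difference between the responses. At most 1 gene of each such list had an unadjusted p under 0.05 in any of these comparisons.

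Of 7 tested neighbours of the members in the genome, 3 rose and 3 fell in KO cells, where 19.9% and 33.3% of all genes did. In WT cells 2 rose and 3 fell, where 24.8% and 37.4% of all genes did. Atp2a3, the calcium pump gene just before P2rx1, had fold changes of -3.13 ± 0.34 in KO cells and -2.82 ± 0.34 in WT cells (limma, adjusted p = 2.76e-05 and 3.90e-05). Camkk1, beyond P2rx1, fell by 0.72 ± 0.19 in KO cells and by 0.52 ± 0.19 in WT cells (limma, adjusted p = 0.00869 and 0.0331), the WT call being lost without WT LPS replicate 2 or 3 or WT PBS replicate 1 (limma, adjusted p = 0.107, 0.0697 and 0.122) and with upper-quartile scaling (limma, adjusted p = 0.0703). Camkk2, beyond P2rx4, fell by 0.97 ± 0.16 in KO cells and by 0.61 ± 0.16 in WT cells (limma, adjusted p = 0.000561 and 0.00701), where P2rx4 itself was not called. Ttc19, beyond Adora2b, rose by 0.59 ± 0.10 and 0.38 ± 0.10 (limma, adjusted p = 0.000737 and 0.00760), less than Adora2b. Gpr171, inside Med12l with P2ry12 to P2ry14, averaged 9.70 FPKM and did not pass the test, with -0.46 ± 0.35 in KO cells and -0.83 ± 0.35 in WT cells (limma, adjusted p = 0.286 and 0.0574). The WT difference passed without WT PBS replicate 3 (-1.24, limma adjusted p = 0.00424), KO LPS replicate 3 (limma, adjusted p = 0.0495) or KO PBS replicate 1 (limma, adjusted p = 0.0494).

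The genes most like each member over the 12 libraries were found by Pearson correlation of log2(FPKM + 1), given as a description, since the libraries share groups and treatment. Adora2b was closest to Znrf1 (r = 0.982), Susd6 (r = 0.978) and Nlrp3 (r = 0.977), and Adora2a to Mapkbp1 (r = 0.946). P2ry14 and P2rx4 shared their nearest genes, Itm2c (r = 0.980 and 0.944) and Aldh1l1 (r = 0.929 and 0.869). WT PBS replicate 3 held the highest value of the 12 libraries for P2ry14, P2rx4 and P2rx7, at 4.85, 36.6 and 9.27 FPKM. The part of that library in these correlations was not tested. P2rx1 was closest to Gprc5a (r = 0.960), P2rx7 to Wls (r = 0.963), P2ry6 to Sertad1 (r = 0.954), P2ry13 to Il18rap (r = 0.956) and P2ry2, the least closely matched, to Atp6v1e1 (r = 0.875).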

How the data were processed

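Libraries from total RNA of peritoneal lavage cells followed a Solexa protocol, per the labels' protocols. Each library has its own deposited table of gene symbols with 1 value, of unstated unit. The deposited values were taken as FPKM: they hold fractions, library totals run from 343874 to 388129, and Cufflinks is named in the submitters' processing notes, beside TopHat, HTSeq, DESeq and the build GRCm38, with no version or role. The sources used here name no annotation, filter or strand setting. Of 21878 rows, 27 with a date for a symbol were left out.

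FPKM carries no read number, so no counting interval can be given. Genes below 0.2 FPKM put the relative depth of the libraries at 0.918 to 0.996 of that of WT PBS replicate 1. The search covered only ratios near equal depth, so it could not have found a large difference in depth. At most 18.4% of such values lay within 2% of a common ratio between libraries, too few to recover read numbers.

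The test was limma 3.58.1 (statmod 1.5.0, R 4.3.3) on log2(FPKM + 1), with 4 group means, 12 libraries, 8 residual degrees of freedom and variances shrunk to a trend with robust settings. Contrasts were LPS against PBS per genotype, KO against WT per treatment, and the KO response less the WT response, with Benjamini-Hochberg adjustment over 9841 genes. Exact permutation tests, shares, motif searches and figures ran in Python 3.11.15 (scipy 1.17.1, matplotlib 3.10.9). The procedure was tested on simulated data.

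Alternatives were pseudocounts of 0.1 and 0.5 FPKM, no filter, a minimum of 5 FPKM, median-of-ratios and upper-quartile scaling, no trend, only the libraries compared, a replicate block, and leaving out each library. Members and lists were chosen with earlier results of these data known. All members are named. From each of 9 lists the rule names up to 4 called genes, taken by size of the WT response, and for each tested member it gives the nearest genes by correlation. Il1b and P2ry10 were named after their values were seen.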

Additional observations from a re-analysis of the deposited data

Results flagged for a closer look

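P2rx1, P2ry6 and Adora2b stood out because their response to LPS differed between the genotypes at an unadjusted p under 0.05, while none passed adjustment over all genes. For P2rx1 the KO response less the WT response was -1.10 ± 0.34 on the log2 scale with a limma p of 0.00772 that became 0.374 after adjustment. P2rx1 had the larger fall in KO cells, whose PBS libraries also held more of it. For P2ry6 the difference was 1.08 ± 0.28 with a limma p of 0.00237 that became 0.259, with the smaller fall in KO cells. For Adora2b it was 1.03 ± 0.42 with a limma p of 0.0306 that became 0.481, with the larger rise in KO cells.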

How the results depend on the processing

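Of 961 member values recomputed under the alternatives, 947 kept their side of the threshold, 7 lost the call, 7 gained it and 0 reversed with a call. A change of sign between values without a call counted as kept. The P2ry2 response in WT cells, for example, ran from -0.25 to 0.04 when single libraries were left out. For the other named genes the numbers were 3874, 3825, 36, 13 and 0. A minimum of 5 FPKM left 1 member lower with LPS in KO and 1 in WT cells, since fewer members were tested. Upper-quartile scaling left 1 lower in KO cells, as did leaving out the 2 libraries richest in haemoglobin RNA, an alternative chosen after seeing the data. These were KO LPS replicate 1 and WT LPS replicate 2. Their haemoglobin genes and Alas2 summed to 1886 and 2224 FPKM, against at most 330 FPKM in any other library. The cause was not tested. Leaving out single libraries gave 2 to 3 members higher and 1 to 2 lower in KO cells, and 2 to 4 higher and 3 to 4 lower in WT cells. Over all genes the shares were 15.4% to 21.9% higher and 27.6% to 36.4% lower in KO cells. In WT cells they were 21.0% to 25.0% higher and 33.0% to 37.5% lower. A positive difference between the responses (KO less WT) was called for 0 to 1 member, where it was called for 0 to 43 of all genes. That member was P2ry6 without WT PBS replicate 3, with the smaller fall in KO cells. The ratio of Adora2a to Adora2b ranged over -1.22 to -0.86. Same-numbered libraries did not all deviate together (correlations of -0.25 to 0.19), and the numbers were not taken as pairs. Between KO PBS and WT PBS each correlated best with its own number (0.14, 0.08 and 0.10), a hint from the data and not from the design. With a replicate block the counts were 2 higher and 2 lower in KO and 2 higher and 4 lower in WT cells. FPKM gives no read number, so low members such as P2ry12 rest on an unknown depth.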
